A study of Mus musculus with 15 samples.

Results

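The comparison set the early lung lesions labelled H2 (4 arrays) directly against those labelled H1 (3 arrays), which together are 7 of the 15 arrays of the study. Every sample came from mice with a K-RasG12V knock-in allele, which encodes an oncogenic Ras protein together with a colour marker for the cells that express it. The lungs were taken 3 months after an adenovirus had delivered Cre recombinase in vivo. Hyperplasias of about 500 cells each were cut from frozen sections by laser capture microdissection, a method that lifts chosen cells out of a section under the microscope, and the 8 samples of normal cells came from the same sections. The normal cells therefore shared the mice, the virus and the time with the lesions, and they serve here only as a reference level. The sources used here do not give the strain, the age of the mice, the promoter that drives Cre, how each lesion got its H1 or H2 label, or which samples share a mouse. Where the labels were drawn from these expression values, the comparison does not bear independently on the existence of the 2 subtypes. Lesions of a shared mouse would not be independent, and the p-values over arrays would then be too small or too large. Values were compared for 18193 genes. Signals are on the log2 scale of the deposited RMA table, differences are H2 minus H1 with the SE of the limma fit (3 against 4 arrays), and a list's counts at an unadjusted p under 0.05 read against 11.8% higher and 7.09% lower among all genes.

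Ras proteins are small GTPases that pass growth factor signals through the RAF, MEK and ERK kinases, and Sprouty, Spred and dual specificity phosphatases restrain that cascade. Alveolar type 2 (AT2) cells, which make lung surfactant and renew the alveolar epithelium, are a known origin of Ras-driven lung adenomas. Ddr1 encodes a receptor tyrosine kinase that is activated by collagen, and Notch receptors are cleaved on contact with Jagged or Delta ligands to release a transcriptional activator.

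The promoters of Ddr1, Meg3 and Ndufs8 are shown because the first is the gene with the lowest p in the comparison, the next is a long noncoding RNA close behind it in that order, and the last is a respiratory chain gene of the same group whose promoter holds a match to the core of the ETS motif. Each run covers 250 bases before to 50 bases after the annotated start (RefSeq, GRCm38.p6), is written 5′ to 3′ on the strand of the gene, and has any match to the ETS core, CCGGAAG on either strand, in capitals.
Ddr1 promoter, chr17:35704550-35704849, minus strand: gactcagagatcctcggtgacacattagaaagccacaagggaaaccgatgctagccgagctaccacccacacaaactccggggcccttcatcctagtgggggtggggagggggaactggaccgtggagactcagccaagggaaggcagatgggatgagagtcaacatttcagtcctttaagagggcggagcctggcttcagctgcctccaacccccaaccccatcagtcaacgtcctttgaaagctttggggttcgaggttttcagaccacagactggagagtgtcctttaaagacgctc
Meg3 promoter, chr12:109540746-109541045, plus strand: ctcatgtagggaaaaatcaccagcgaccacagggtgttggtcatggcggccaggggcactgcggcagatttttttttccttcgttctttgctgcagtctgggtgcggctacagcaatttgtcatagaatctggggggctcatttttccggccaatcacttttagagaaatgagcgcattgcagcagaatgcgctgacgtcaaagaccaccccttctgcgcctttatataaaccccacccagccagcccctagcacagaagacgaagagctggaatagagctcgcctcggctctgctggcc
Ndufs8 promoter, chr19:3912725-3913024, minus strand: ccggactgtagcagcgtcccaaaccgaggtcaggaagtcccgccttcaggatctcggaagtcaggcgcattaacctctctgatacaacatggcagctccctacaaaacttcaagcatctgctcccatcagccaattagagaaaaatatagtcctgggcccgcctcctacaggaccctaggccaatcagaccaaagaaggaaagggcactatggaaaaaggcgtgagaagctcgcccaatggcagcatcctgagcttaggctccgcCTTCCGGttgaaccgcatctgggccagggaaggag
Among the 15 genes of lowest p named in each direction, only the promoters of Ndufs8 and Ganab held a match, 1 each. All others of these genes with a promoter in the RefSeq table, Ddr1 and Meg3 among them, held 0. Among all 27025 promoters of the RefSeq table, 9.12% held the ETS core, and among the 14452 tested genes with a promoter there 13.8% did. The share was 18.8% of 1536 genes whose H2 values all lay above their H1 values, 10.5% of 1095 genes whose H2 values all lay below, and 13.4% of 11821 genes with overlapping values. The shares also moved with signal. In the same order they were 11.3%, 7.79% and 9.59% among genes with a mean signal up to 4. From 4 to 5 they were 14.6%, 12.1% and 14.6%, and from 5 to 6 they were 26.7%, 13% and 17.4%. From 6 to 8 they were 19.1%, 13% and 17.9%, and above 8 they were 22.3%, 12.5% (of 24 promoters) and 17.4%. A match describes letters in this window and nothing about binding.

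The lesions carried alveolar epithelial RNA in both groups. All 20 measured genes of the AT2 and surfactant list had a mean over the 7 arrays above the median of all probe sets (3.94), and 13 of them had a mean above 8 on the log2 scale. The mean level of that list ran from 7.42 to 8.77 over the H1 arrays and from 8.26 to 9.45 over the H2 arrays. Xist lay between 9.13 and 11.6 on the 7 lesion arrays, and the 4 Y-linked genes measured lay between 2.32 and 3.89. In bulk samples of this kind, fewer cells of a type and less RNA per cell cannot be told apart.

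The H2 arrays had a wider spread of values than the H1 arrays. Across the genes of an array, the standard deviation of log2 values was 1.42 ± 0.0966 (SD, n = 3) in H1, with a range of 1.31 to 1.50, and 1.65 ± 0.117 (SD, n = 4) in H2, with a range of 1.52 to 1.78. These ranges did not overlap, and the exact two-sided permutation p was 0.0571, the smallest that 3 against 4 arrays allow (0.171 after Benjamini-Hochberg adjustment over 4 such measures). The 3′ minus 5′ difference of the Actb control probe sets, a sign of RNA integrity, was -0.70 in H1 and -0.003 in H2 (exact permutation p = 0.171). That of the Gapdh control probe sets was 2.54 in H1 and 3.32 in H2 (exact permutation p = 0.171). Its highest value, 4.58, was on H2 replicate 7. Pearson correlations over genes ran from 0.881 to 0.944 among H1 arrays, from 0.854 to 0.936 among H2 arrays and from 0.782 to 0.908 between the groups, and the lowest involved H1 replicate 2.

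Differences between H2 and H1 grew with signal. The median H2 minus H1 was -0.04 among 6965 genes with a mean up to 4, 0.03 from 4 to 5, 0.19 from 5 to 6, 0.58 from 6 to 8, and 1.01 among 583 genes above 8. When each array was scaled to the same spread, the medians in those tiers were 0.12, 0.01, 0.03, 0.23 and 0.35. In the 2 H1 and 2 H2 arrays of nearest spread (H1 replicates 3 and 4, H2 replicates 1 and 5) they were 0.05, 0.03, 0.02, 0.13 and 0.42. The part of the wider H2 spread in the gene differences was not tested beyond these values, and the main gene lists are given with both.

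**Figure D1:**
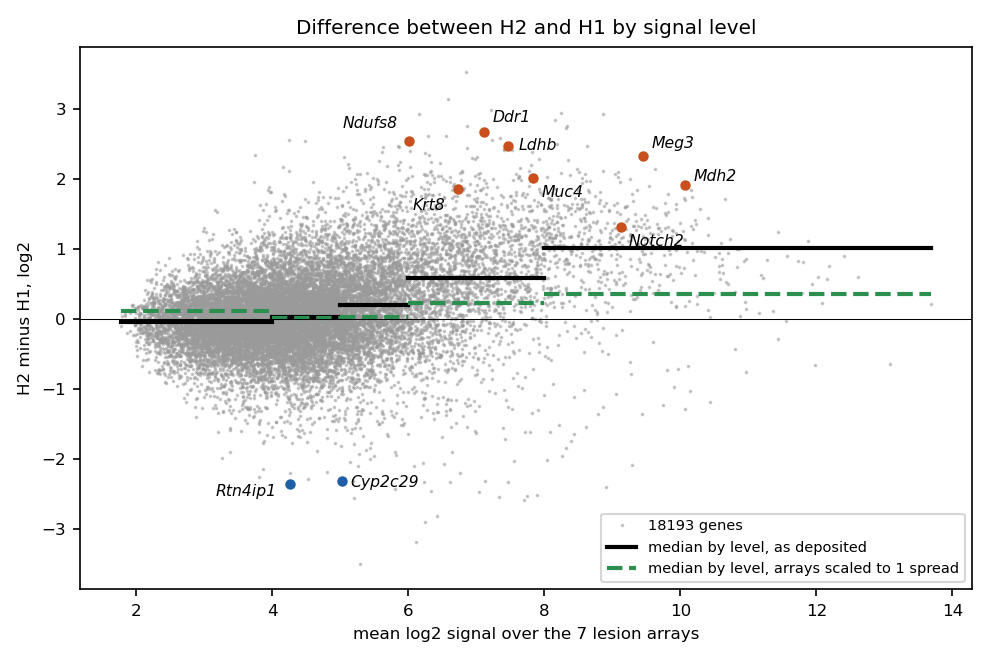
Each grey point is a gene, with its mean log2 signal over the 7 lesion arrays on the horizontal axis and H2 minus H1 (log2) on the vertical axis. Black bars mark the median in each signal tier as deposited, which runs from -0.04 to 1.01, and green dashes the same after scaling the arrays to equal spread, which ends at 0.35.

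Over all genes, limma with Benjamini-Hochberg adjustment called 0 genes higher and 0 lower at an adjusted p under 0.05, and the lowest adjusted p was 0.0643. H2 was the higher group for 55.8% of all genes at any size of difference. At an unadjusted p under 0.05, 2138 genes (11.8%) were higher in H2 and 1290 (7.09%) were lower. All H2 values lay above all H1 values for 1894 genes (10.4%), and all lay below for 1412 genes (7.76%). The higher share of the genes at an unadjusted p under 0.05 was 62.4% as deposited and 44.4% after a repeated quantile normalization, which also moved the median of all genes from 0.07 to 0.006. Weighting the arrays by their estimated variability gave 491 higher and 256 lower calls, a count that no other setting approached. The genes below are therefore described by their values, and each stands as not past the threshold over all genes.

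Ddr1 had the lowest p between the lesions. Its signal was 5.27, 5.60 and 5.90 in H1 replicates 2, 3 and 4, and 8.26, 7.79, 8.54 and 8.43 in H2 replicates 1, 5, 6 and 7. Every H2 array lay more than the whole H1 range above the H1 arrays, with a difference of 2.66 ± 0.27 (SE, 6.34-fold, limma adjusted p = 0.0643). The normal cells ran from 3.28 to 7.93 with a median of 6.36, so that H1 lay within their range and 3 of 4 H2 arrays above it. The difference was 2.34 with arrays scaled to equal spread and 2.28 in the arrays of nearest spread. The value depended on the probe set. The 5 probe sets of Ddr1 with the suffix x_at, which may match more than 1 transcript, differed by 0.73 to 2.66, and the other 3 by -0.29 to 0.11.

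The collagen genes had smaller differences than Ddr1. Of 15 measured discoidin domain receptor and collagen genes, 15 had a positive difference and 2 had an unadjusted p under 0.05, with a median of 0.41 (0.33 scaled, 0.38 in the arrays of nearest spread) beside 0.07 for all genes. Ddr1 itself was among these 2, and it was the only member whose groups did not overlap. Ddr2, the other discoidin domain receptor, was 5.32, 4.66 and 4.44 in H1 and 6.05, 4.63, 4.63 and 6.21 in H2, and these values overlapped (0.57 ± 0.46, adjusted p = 0.544). Of the basement membrane collagens that activate Ddr1, Col4a1 differed by 1.06 ± 0.48 and Col4a2 by 0.63 ± 0.27, and both overlapped between the groups. The interstitial collagens Col3a1 and Col1a2, which belong to the fibroblast list and not to this one, differed by 1.40 ± 0.34 and 1.17 ± 0.35 without overlap. The integrin and laminin list was mixed, with a median of 0.17 that turned to -0.02 after the repeated quantile normalization and to -0.03 in the arrays of nearest spread. Within it Lamb1 differed by 1.39 ± 0.38, the integrin subunit Itgav by 1.36 ± 0.43, Itgb8 by -1.34 ± 0.33 and Lama5 by -2.06 ± 0.60. Lama5, a laminin of mature basement membranes, was 7.62, 7.44 and 7.09 in H1 and 6.21, 6.01, 5.65 and 3.44 in H2. One H2 array, replicate 7, lay far below the others, and the difference was -1.16 in the arrays of nearest spread, which leave out H2 replicates 6 and 7 and H1 replicate 2. The other 2 probe sets of Lama5 differed by 0.85 and 0.09.

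In the Notch pathway the receptor Notch2 had the lowest p. It was 8.26, 8.29 and 8.57 in H1 and 10.13, 9.30, 9.59 and 9.69 in H2, without overlap (1.31 ± 0.25, adjusted p = 0.0643), and it was above the normal range of 6.63 to 9.09 in every H2 array. The ligand Jag1 differed by 1.48 ± 0.44 with overlapping values, and Adam10, a protease that cleaves Notch receptors, by 0.97 ± 0.30 without overlap. Notch1 had a negative difference on its brighter probe set at -0.47 ± 0.26, with H1 at 5.77, 5.25 and 5.35 and H2 at 5.17, 5.04, 4.52 and 5.21. The Notch target Hes1 differed by 0.10 ± 0.23 and overlapped. Over 21 measured Notch genes 3 had an unadjusted p under 0.05 with a positive difference and 0 with a negative one, and the median of 0.10 was close to that of all genes. The second probe set of Notch2 differed by 0.04 and that of Notch1 by 0.36, the probe sets of Jag1 ranged from -0.47 to 1.48, and those of Adam10 from -0.76 to 0.97.

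**Figure D2:**
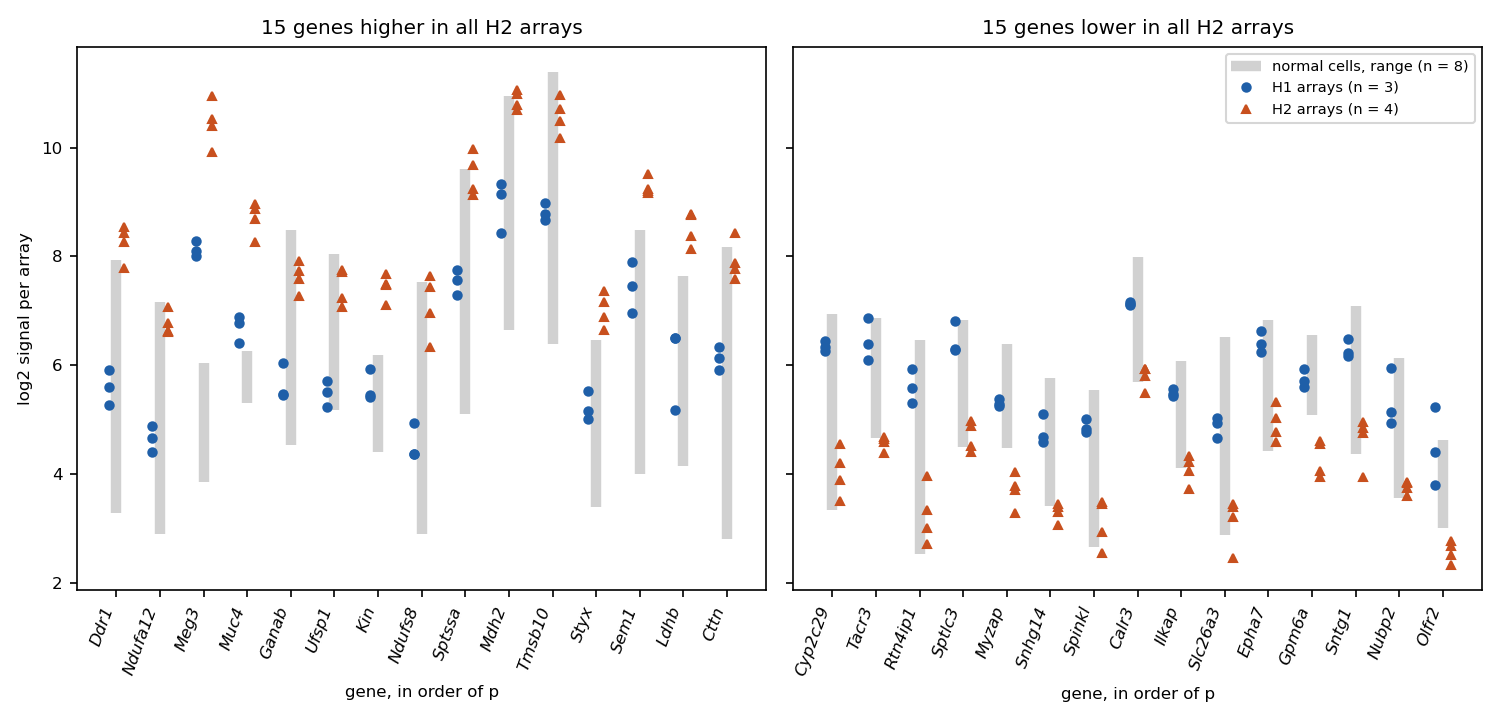
Log2 signal on each H1 array (blue circles) and H2 array (orange triangles) of the 15 genes with the lowest p in each direction whose groups did not overlap, in order of p, over the range of the 8 normal arrays (grey bars). In Ddr1 the H1 arrays sit between 5.27 and 5.90 and the H2 arrays between 7.79 and 8.54, and for Meg3 and Muc4 all 7 lesion arrays lie above the normal range.

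Meg3 and Muc4 were above normal cells in both lesion groups and higher again in H2. Meg3, an imprinted long noncoding RNA, was 8.00, 8.10 and 8.28 in H1 and 10.40, 10.53, 9.92 and 10.96 in H2, against a normal range of 3.86 to 6.03. The difference was 2.33 ± 0.27 (5.01-fold, adjusted p = 0.0643), 1.63 with scaled arrays and 2.28 in the arrays of nearest spread. Of its 11 probe sets 8 had a positive difference, from -0.18 to 2.33 in all, and without x_at and s_at sets the value was 1.15. Muc4, a membrane mucin that binds ErbB2, was 6.88, 6.77 and 6.40 in H1 and 8.87, 8.26, 8.97 and 8.68 in H2, against a normal range of 5.30 to 6.26. Its difference of 2.01 ± 0.25 came from an x_at probe set, and its other 2 sets gave -0.04 and 0.42. The imprinted list as a whole had 1 gene in each direction at an unadjusted p under 0.05. The lower one was Ndn, a growth suppressor, at 8.10, 7.45 and 7.64 in H1 and 6.29, 6.74, 4.82 and 3.25 in H2 (-2.46 ± 0.73), and its 8 probe sets ran from -2.46 to 1.08.

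Epithelial junction and keratin genes had 15 of 28 measured members higher in H2 and 1 lower when an unadjusted p under 0.05 was asked for, against 11.8% and 7.09% of all genes, and their median was 0.79 (0.39 scaled, 0.17 in the arrays of nearest spread, 0.05 with array spread as a covariate). Krt8, a keratin of simple epithelia, was 5.36, 5.34 and 6.34 in H1 and 7.03, 7.85, 7.80 and 7.42 in H2. The groups did not overlap, all 4 H2 arrays lay above the highest normal array (6.70), and the difference was 1.85 ± 0.33 (adjusted p = 0.0643) with all 3 probe sets between 1.12 and 1.85. The tight junction protein Cldn3 differed by 1.11 ± 0.23, the epithelial splicing regulator Esrp2 by 1.17 ± 0.27 and the keratin Krt7 by 1.01 ± 0.24, each without overlap. The mean level of the list ran from 5.51 to 5.80 in H1 and from 6.00 to 6.58 in H2.

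Genes of alveolar identity were higher in H2 by amounts that shrank when the spread of the arrays was matched. All 20 measured AT2 genes had a positive difference and 5 an unadjusted p under 0.05. Their median of 0.76 was 0.16 with scaled arrays, 0.005 in the arrays of nearest spread and -0.23 with array spread as a covariate. Chil1, a chitinase-like secreted protein, was 7.82, 8.05 and 8.36 in H1 and 8.48, 9.60, 9.91 and 10.47 in H2 (1.54 ± 0.43). Surfactant protein B (Sftpb) differed by 0.78 ± 0.28, and this turned to -0.13 after the repeated quantile normalization. Fabp5, a fatty acid binding protein, differed by 0.94 ± 0.34 with overlap, and the protease Ctsh by 1.04 ± 0.42.

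Of 16 alveolar type 1 (AT1) genes, which mark the flat gas exchange cells, 4 were higher at an unadjusted p under 0.05 and 0 were lower, with a median of 0.44 (0.22 scaled, 0.08 in the arrays of nearest spread). Ager, a receptor abundant on AT1 cells, was 7.60, 8.39 and 9.04 in H1 and 9.52, 10.02, 10.12 and 10.40 in H2 (1.68 ± 0.36, adjusted p = 0.0717), within the normal range of 4.65 to 11.37. Emp2 differed by 0.69 ± 0.27, and the water channel Aqp5 by 0.75 ± 0.33, which became -0.00133 after the repeated quantile normalization.

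Among 17 lung lineage factors 3 were higher at an unadjusted p under 0.05 and 0 were lower (median 0.41, 0.30 scaled, 0.08 in the arrays of nearest spread). Foxa2, a forkhead factor of the lung epithelium, was 5.18, 5.87 and 5.60 in H1 and 6.50, 6.33, 6.72 and 6.96 in H2. Every H2 array lay above the highest normal array of 5.93, and the difference was 1.07 ± 0.26 (adjusted p = 0.0857). Cebpb differed by 0.92 ± 0.26 and Elf5, an ETS factor of distal lung progenitors, by 1.25 ± 0.41, both without overlap. The 13 measured club cell genes, which mark secretory cells of the airway, had 2 in each direction at an unadjusted p under 0.05 and a median of -0.11.

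The output of the ERK cascade was not uniformly higher in H2. Of 23 ERK output and feedback genes 3 were higher in H2 and 1 lower (unadjusted p under 0.05), with a median of 0.58 (0.28 scaled, 0.12 in the arrays of nearest spread, -0.25 with array spread as a covariate). The feedback inhibitor Spred2 was 5.93, 5.56 and 5.35 in H1 and 6.17, 6.44, 6.54 and 6.53 in H2, all 4 of the latter above the highest normal array of 5.93 (0.81 ± 0.23, adjusted p = 0.122). Spry2, a Sprouty inhibitor, was 5.13, 6.91 and 6.41 in H1 and 6.73, 6.86, 7.73 and 8.02 in H2. It overlapped between the groups, and its difference of 1.18 ± 0.47 was 0.67 without H1 replicate 2 alone and 0.13 in the arrays of nearest spread. The phosphatase Dusp7 differed by 0.82 ± 0.34 with overlap, on an x_at set. The probe sets of Spred2 ran from -0.95 to 0.81 and those of Dusp7 from -0.77 to 0.82, and the other set of Spry2 gave -0.06. The ETS factor Etv4, a late target of ERK signalling, was 3.98, 4.38 and 4.86 in H1 and 3.23, 3.63, 3.56 and 3.83 in H2 (-0.84 ± 0.27, adjusted p = 0.153), without overlap and at a low signal.

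Of 14 measured core Ras pathway genes 3 were higher in H2 and 1 lower (unadjusted p under 0.05), and their median of 0.26 turned to -0.07 after the repeated quantile normalization and to -0.12 in the arrays of nearest spread. The phosphatase Ptpn11 (SHP2) differed by 1.22 ± 0.32, the adaptor Grb2 by 0.79 ± 0.22 and the kinase Map2k1 (MEK1) by 0.85 ± 0.28, each without overlap. Grb2 was 4.13, 4.23 and 4.21 in H1 and 4.90, 4.77, 4.96 and 5.27 in H2. Nf1, which turns Ras off, ran the other way at 5.03, 5.01 and 4.60 in H1 and 3.86, 3.96, 4.21 and 4.10 in H2, where all 4 arrays lay below the normal range of 4.51 to 5.68 (-0.85 ± 0.22, adjusted p = 0.099). Its 3 probe sets ran from -0.85 to 0.09.

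Among 14 ErbB receptors and ligands 3 were higher in H2 and 1 lower (unadjusted p under 0.05). The ligand Tgfa was 3.74, 4.32 and 3.82 in H1 and 5.64, 4.76, 5.28 and 4.92 in H2 (1.19 ± 0.28), and the receptor Erbb2 was 4.00, 3.63 and 3.43 in H1 and 4.90, 4.47, 4.92 and 4.48 in H2 (1.01 ± 0.25). Both held in the arrays of nearest spread, at 1.13 and 1.16. The probe sets of Tgfa ran from -0.64 to 1.19. Egfr differed by 0.57 ± 0.24, and its 7 probe sets ran from -0.71 to 0.57. The list's median was 0.28, 0.14 scaled and 0.10 in the arrays of nearest spread.

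Immediate early genes, which growth factors switch on within minutes, gave values in both directions. Of 22, 7 were higher in H2 and 2 lower (unadjusted p under 0.05), with a median of 0.49 (0.31 scaled, 0.18 in the arrays of nearest spread). Ier3 was 5.49, 5.40 and 5.15 in H1 and 6.50, 6.59, 7.55 and 6.51 in H2 (1.44 ± 0.30, adjusted p = 0.0709). Egr2 differed by 1.40 ± 0.45 (0.44 in the arrays of nearest spread) and Myc by 0.85 ± 0.26, and Fosb, a partner in the AP-1 factor, by -1.23 ± 0.31. Fosb lay at 3.84, 4.23 and 3.52 in H1 and at 2.98, 3.09, 2.39 and 2.09 in H2, a range where values are close to the median of all probe sets or below it.

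The mitochondrial respiratory chain list had 23 of 24 members with a positive difference and 9 higher at an unadjusted p under 0.05, and 9 did not overlap between the groups against 10.4% of all genes. Its median was 0.79, with 0.52 scaled, 0.23 in the arrays of nearest spread and 0.022 with array spread as a covariate, a setting in which the median of all genes was 0.04. Among subunits of complex I, Ndufs8 was 4.36, 4.37 and 4.93 in H1 and 7.43, 6.97, 6.33 and 7.64 in H2 (2.54 ± 0.34, adjusted p = 0.0643), and Ndufa12 was 4.39, 4.66 and 4.89 in H1 and 6.63, 6.61, 6.78 and 7.07 in H2 (2.13 ± 0.23). Both stood on x_at probe sets. The single other set of Ndufa12 gave -0.52, and the other 3 of Ndufs8 gave -0.41 to 0.76. Ndufb5 was 6.70, 7.96 and 8.30 in H1 and 9.51, 9.50, 9.99 and 10.05 in H2 (2.11 ± 0.38), on a probe set of another class, and all 4 H2 arrays lay above the highest normal array of 9.07. The other probe set of Ndufb5 gave 0.27. Ndufa4 differed by 1.18 ± 0.23, cytochrome c (Cycs) by 1.63 ± 0.38 and Cox5b of complex IV by 1.65 ± 0.43, each without overlap. Mdh2, the malate dehydrogenase of the mitochondrial citric acid cycle, was 8.43, 9.15 and 9.34 in H1 and 10.69, 10.79, 11.06 and 10.98 in H2 (1.91 ± 0.27, 1.13 scaled).

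Among enzymes of sugar metabolism, Ldhb, which interconverts lactate and pyruvate, was 5.17, 6.49 and 6.49 in H1 and 8.77, 8.14, 8.38 and 8.77 in H2, above the normal range of 4.15 to 7.64 in all 4 (2.47 ± 0.36, adjusted p = 0.0643), and its 4 probe sets ran from 0.62 to 2.47. Over 16 glycolysis genes 6 were higher in H2 and 0 lower (unadjusted p under 0.05), with a median of 0.60 (0.33 scaled, 0.12 in the arrays of nearest spread, and slightly below 0 with array spread as a covariate). Hexokinase 2 (Hk2) differed by 0.95 ± 0.25 without overlap. Tpi1 differed by 1.77 ± 0.59 with overlap, by 1.17 without H1 replicate 2 (3.66) and by 0.48 in the arrays of nearest spread.

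Enzymes of the pentose phosphate pathway, which supplies NADPH and ribose, depended on the probe set. Pgd was 4.87, 7.29 and 8.12 in H1 and 10.10, 8.92, 9.53 and 9.40 in H2, with a difference of 2.73 ± 0.67 (1.78 without H1 replicate 2), 3 x_at sets from 2.60 to 2.73 and a further set at -0.06. Tkt differed by 1.12 ± 0.31 on an x_at set and by -0.19 without such sets. Taldo1, with a single probe set, differed by 0.67 ± 0.26 and overlapped. Nfe2l2, the NRF2 factor that controls many antioxidant genes, was 5.18, 7.15 and 7.40 in H1 and 7.19, 8.50, 9.15 and 8.52 in H2 (1.76 ± 0.60, 0.57 in the arrays of nearest spread). The 18 measured NRF2 targets had a median of 0.38 that was -0.15 in the arrays of nearest spread.

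**Figure D3:**
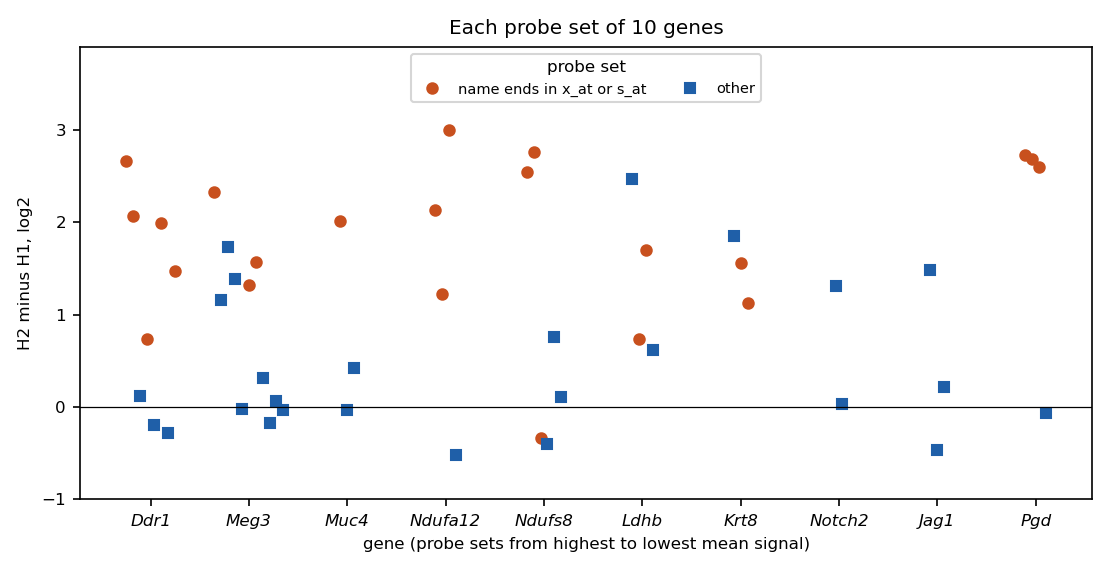
H2 minus H1 (log2) of every probe set of 10 genes, with sets whose name ends in x_at or s_at as orange circles and other sets as blue squares. All 3 sets of Krt8 lie between 1.12 and 1.85, while the 5 orange sets of Ddr1 lie from 0.73 to 2.66 and its 3 blue sets from -0.29 to 0.11.

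The class of probe set was unevenly shared. Of the 15 named genes higher in H2, 7 stood on an x_at set (46.7%), against 4.23% of all genes tested, 10% of genes whose H2 values all lay above H1 and 5.81% of genes whose H2 values all lay below. Within probe sets of a mean above 8, H2 lay wholly above H1 for 60.7% of x_at sets, 44.8% of s_at sets, 50.3% of a_at sets and 34.1% of the others. Ganab, Ufsp1 and Tmsb10 differed by 1.98, 1.96 and 1.78 on x_at or s_at sets and by 0.16, 0.04 and 0.09 on their only other set. The part of cross-matching probes in these values was not tested.

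Genes of lipid synthesis included several without overlap. Acly, which makes acetyl-CoA for lipid synthesis, was 8.22, 9.51 and 9.10 in H1 and 10.26, 10.29, 10.67 and 10.46 in H2 (1.48 ± 0.32, adjusted p = 0.0717). Acly stood on an x_at set, and its probe sets ran from -1.04 to 1.48. The carboxylase Acaca differed by 1.00 ± 0.30 and the elongase Elovl1 by 1.62 ± 0.50. The other probe set of Acaca gave -0.48, and those of Elovl1 ran from 0.90 to 1.71. Over 20 fatty acid synthesis genes 5 were higher in H2 and 0 lower (unadjusted p under 0.05) (median 0.46, 0.20 scaled, 0.16 in the arrays of nearest spread, -0.10 with array spread as a covariate). Of 16 cholesterol genes 6 were higher and 1 was lower, and 6 and 1 did not overlap, against 10.4% and 7.76% of all genes. Their median was 0.21, with 0.16 scaled and 0.37 in the arrays of nearest spread, a list whose median was larger there. Hmgcs1, an early enzyme of cholesterol synthesis, was 7.46, 8.55 and 8.81 in H1 and 9.88, 9.70, 10.05 and 10.61 in H2 (1.79 ± 0.37, adjusted p = 0.0692), Idi1 differed by 1.36 ± 0.36, and the sterol sensor partner Insig1 by 1.34 ± 0.37. The probe sets of Hmgcs1 ran from -0.46 to 1.79, and the other set of Idi1 gave 0.48. For ceramide synthesis, Sptssa, a small subunit of serine palmitoyltransferase, differed by 1.97 ± 0.27, and Sptlc3, a large subunit of the same enzyme, by -1.78 ± 0.25. The other probe set of Sptlc3 differed by 0.10.

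Genes for making, splicing and breaking down gene products were among the lists of largest median, and they are also genes of high signal. All 18 measured splicing genes had a positive difference and 10 an unadjusted p under 0.05, with a median of 0.91 (0.30 scaled, 0.41 in the arrays of nearest spread). Hnrnpu, an RNA binding protein of the nucleus, was 7.99, 8.93 and 9.17 in H1 and 9.51, 9.91, 10.55 and 10.45 in H2 (1.41 ± 0.37). The RNA helicase Ddx17 differed by 1.50 ± 0.26 on an x_at set and by -0.24 without such sets. Of 23 ribosomal protein genes 11 were higher and 1 was lower, with a median of 0.85 (0.33 scaled, 0.26 in the arrays of nearest spread). Rps2 differed by 1.23 ± 0.22 and Rpl27 by 1.60 ± 0.37. Of 14 proteasome genes 6 were higher and 1 was lower, with a median of 0.88 (0.62 scaled, 0.21 in the arrays of nearest spread). Psmb4, a core particle subunit, was 7.41, 7.97 and 8.15 in H1 and 9.58, 9.23, 9.74 and 9.60 in H2 (1.70 ± 0.26, adjusted p = 0.0643), Psmd14 differed by 1.34 ± 0.38, and Sem1, a small subunit of the regulatory particle, by 1.85 ± 0.27. With array spread as a covariate the medians of the splicing, ribosomal and proteasome lists were 0.07, -0.04 and -0.08.

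**Figure D4:**
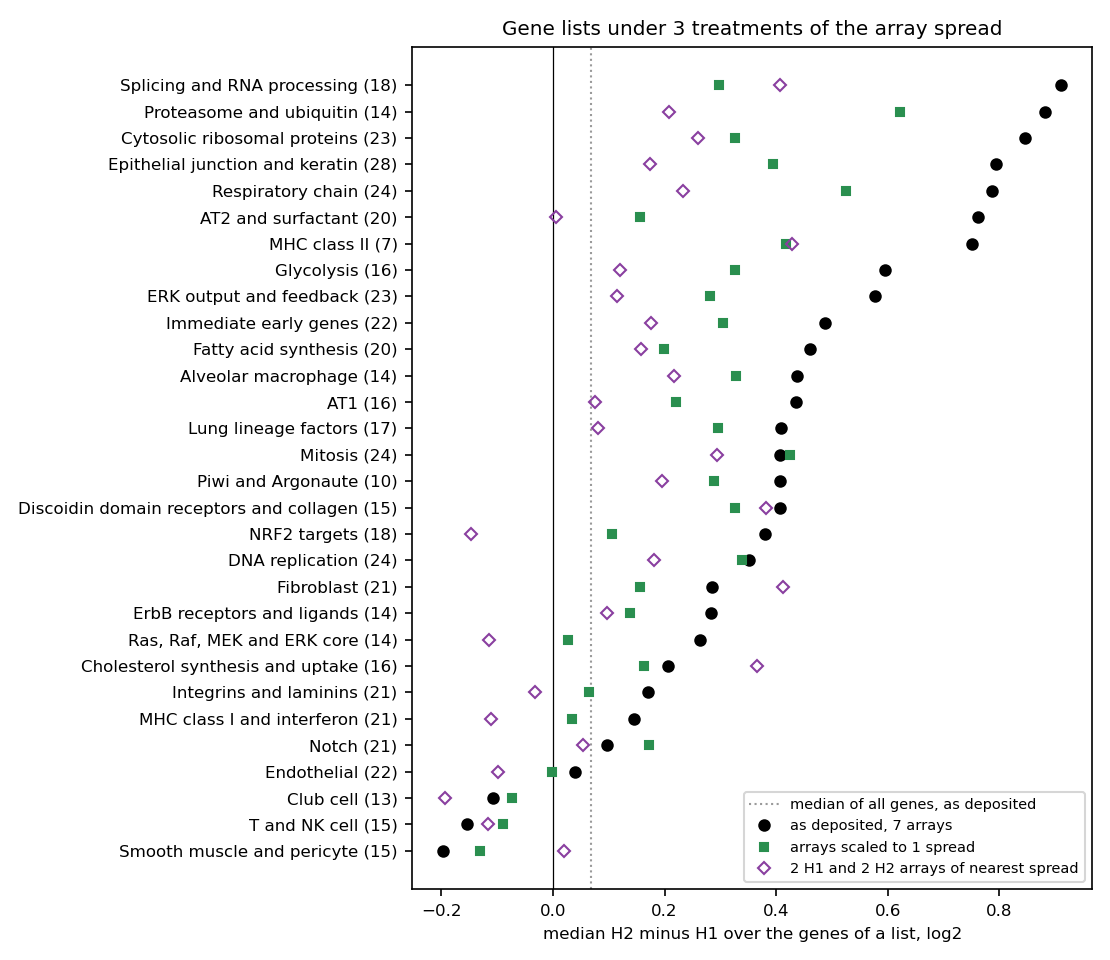
Median H2 minus H1 (log2) over the measured genes of each list, with the number of genes in brackets, as deposited (black circles), after scaling the arrays to equal spread (green squares) and in the 2 H1 and 2 H2 arrays of nearest spread (open diamonds); the dotted line marks the median of all genes, 0.07. The splicing list moves from 0.91 to 0.30 and 0.41, and the AT2 list from 0.76 to 0.16 and 0.005.

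Of 24 mitosis genes 20 had a positive difference, and 4 were higher in H2 and 0 lower (unadjusted p under 0.05), against 11.8% higher over all genes. The median was 0.41 as deposited, 0.42 scaled, 0.29 in the arrays of nearest spread and 0.13 with array spread as a covariate. Bub1b, a spindle checkpoint kinase, was 3.23, 3.22 and 3.28 in H1 and 4.17, 4.60, 4.12 and 4.01 in H2 (0.98 ± 0.23, adjusted p = 0.0785). The mitotic cyclin Ccnb2 was 2.18, 2.33 and 2.42 in H1 and 4.49, 3.52, 2.78 and 3.42 in H2 (1.24 ± 0.37), and the kinase Aurkb differed by 0.89 ± 0.34. The H1 values of Bub1b and Ccnb2 lay below the median of all probe sets (3.94). The other probe sets of Bub1b differed by 0.11 and 0.40, and that of Aurkb by -0.32. Of 24 DNA replication genes 7 were higher and 0 were lower, with a median of 0.35 (0.34 scaled, 0.18 in the arrays of nearest spread). The helicase subunits Mcm4, Mcm5 and Mcm6, which license replication origins, differed by 1.39 ± 0.40, 1.44 ± 0.44 and 1.50 ± 0.47 on x_at sets without overlap, and by 0.80, 0.16 and 0.27 without such sets. A second x_at set of Mcm6 differed by -1.31.

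Other genes higher in H2 without overlap had varied roles, and among them Kin, Styx and Cttn each had an adjusted p of 0.0643. Kin, a nuclear DNA and RNA binding protein, was 5.45, 5.93 and 5.40 in H1 and 7.11, 7.67, 7.47 and 7.49 in H2 (1.84 ± 0.24), above the normal range of 4.40 to 6.18 in all 4 H2 arrays, on its only probe set. Styx, a catalytically inactive phosphatase relative, differed by 1.79 ± 0.26, and cortactin (Cttn), an organiser of cortical actin, by 1.79 ± 0.26. The probe sets of Styx ran from -0.43 to 1.79, and those of Cttn from -0.34 to 1.79. Drosha, the nuclease that starts microRNA maturation, differed by 1.72 ± 0.34 (adjusted p = 0.0646), and its 3 probe sets ran from 0.41 to 1.72. In the same list Ago2, which carries small RNAs, was 5.99, 3.18 and 4.13 in H1 and 6.48, 6.21, 7.04 and 6.74 in H2 (2.18 ± 0.57), and its 4 probe sets ran from -1.25 to 2.18. Piwil4 was 5.49, 6.88 and 6.78 in H1 and 7.64, 6.94, 7.62 and 8.98 in H2, against a normal range of 3.00 to 5.16, and its difference of 1.41 ± 0.51 was -0.26 without the x_at set.

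Hdc, which makes histamine, was above most normal cells in both groups. It was 6.91, 8.26 and 7.96 in H1 and 8.70, 9.30, 9.36 and 9.77 in H2, against a normal range of 3.53 to 6.97, and the difference was 1.57 ± 0.37 (adjusted p = 0.0842). That value came from an s_at set, and the other set of Hdc, also s_at, gave 0.07. The metal binding protein gene Mt1 was 4.23, 6.25 and 5.22 in H1 and 7.52, 7.49, 6.49 and 6.83 in H2, against a normal range of 1.88 to 5.06 (1.85 ± 0.47), and its other probe set gave -0.25.

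Several of the 15 genes of lowest p that were lower in H2 lay near or below the median of all probe sets there. Cyp2c29, a cytochrome P450 of steroid, lipid and drug oxidation, was 6.33, 6.27 and 6.44 in H1 and 4.55, 4.20, 3.89 and 3.50 in H2, within the normal range of 3.34 to 6.94 in both (-2.31 ± 0.28, 4.96-fold, adjusted p = 0.0643). Rtn4ip1, a mitochondrial protein, was 5.58, 5.30 and 5.93 in H1 and 2.71, 3.96, 3.34 and 3.00 in H2 (-2.35 ± 0.33), and its 3 probe sets ran from -2.35 to 0.41. Tacr3, the neurokinin 3 receptor, was 6.86, 6.39 and 6.09 in H1 and 4.64, 4.59, 4.68 and 4.39 in H2 (-1.87 ± 0.25) on an x_at set, against 0.11 without such sets. H1 lay near the normal median for these genes, which was 5.94, 5.29 and 6.69.

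Junction, membrane and transport genes were also among the 15 lower genes. Myzap, a protein of cell junctions, was 5.37, 5.25 and 5.29 in H1 and 3.70, 4.04, 3.78 and 3.27 in H2, all 4 below the normal range of 4.48 to 6.40 (-1.61 ± 0.24) on its only probe set. Gpm6a, a membrane glycoprotein also used as a mesothelial marker, was 5.93, 5.59 and 5.70 in H1 and 4.55, 4.60, 4.04 and 3.95 in H2, below the normal range of 5.09 to 6.56 (-1.46 ± 0.25). That value came from an s_at set, and the other set of Gpm6a gave -0.24. The ephrin receptor Epha7 differed by -1.50 ± 0.25, the chloride and bicarbonate exchanger Slc26a3 by -1.75 ± 0.29 and the syntrophin Sntg1 by -1.67 ± 0.29. The probe sets of Epha7 ran from -1.97 to 0.34 and those of Slc26a3 from -1.75 to -0.35, and the other set of Sntg1 gave -0.10. Calr3, a calreticulin relative known from testis, was 7.12, 7.16 and 7.11 in H1 and 5.80, 5.93, 5.49 and 5.93 in H2 (-1.34 ± 0.21), and its 3 probe sets ran from -1.34 to 0.11. The phosphatase Ilkap differed by -1.41 ± 0.23, the imprinted noncoding RNA Snhg14 by -1.49 ± 0.23, Spinkl by -1.77 ± 0.28, Nubp2 of iron-sulfur cluster assembly by -1.59 ± 0.28 and the olfactory receptor gene Olfr2 by -1.90 ± 0.34. The other probe set of Ilkap gave -0.03, and those of Snhg14 ran from -1.49 to -0.11. Nubp2 stood on an x_at set, and its other set gave -0.34. Of these 15 genes, each had an adjusted p of 0.0643 and a negative difference with scaled arrays and in the arrays of nearest spread.

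Genes of other cell types in the lung did not differ in a single direction. Of 21 fibroblast genes 6 were higher in H2 and 2 lower (unadjusted p under 0.05), with 2 of 21 at a mean below the median of all probe sets and 2 above 8, and a median of 0.28 that turned to -0.05 after the repeated quantile normalization. The mean level of the list ran from 5.88 to 5.95 in H1 and from 6.14 to 6.42 in H2. The list shares Col3a1 and Col1a2 with the collagen values above, and the part of fibroblast RNA in them was not tested. The carboxylesterase Ces1d differed by 1.67 ± 0.42 and the matrix protein Fbln1 by -1.13 ± 0.33. Of 22 endothelial genes 1 was higher and 1 was lower, with a median of 0.04 that was -0.05 after the repeated quantile normalization, and the mean level ran from 4.63 to 4.99 in H1 and from 4.74 to 4.92 in H2. The vascular growth factor receptor Flt1 differed by 1.12 ± 0.33 and Clec14a by -0.66 ± 0.26. Of 13 ciliated cell genes 0 were higher and 1 was lower. That gene, the dynein chain Dnaic1, was 9.61, 9.28 and 9.26 in H1 and 8.11, 8.66, 7.79 and 6.00 in H2 (-1.75 ± 0.55, adjusted p = 0.144), without overlap, and its 2 probe sets gave -1.75 and -2.02. Of 15 smooth muscle and pericyte genes 0 were higher and 3 were lower (median -0.20, 0.02 in the arrays of nearest spread).

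The lists of immune markers had medians of either sign. Of 14 alveolar macrophage genes 3 were higher in H2 and 0 lower (unadjusted p under 0.05), with 3 of 14 below the median of all probe sets, and the mean level ran from 4.89 to 5.42 in H1 and from 5.36 to 6.12 in H2 (median difference 0.44, 0.33 scaled, 0.22 in the arrays of nearest spread, -0.17 with array spread as a covariate). The lipid binding protein Fabp4 differed by 1.44 ± 0.43 and the lipase Lpl by 1.36 ± 0.49, both with overlap. Aif1, a macrophage protein, was 3.77, 3.55 and 4.47 in H1 and 5.27, 5.50, 5.61 and 6.23 in H2 (1.72 ± 0.32, adjusted p = 0.0643), and Csf1r, the receptor that maintains macrophages, differed by 1.09 ± 0.37 with overlap. Of 7 measured MHC class II genes 3 were higher and 0 were lower (median 0.75, 0.42 scaled, 0.43 in the arrays of nearest spread). H2-Aa, a class II chain, was 8.50, 9.92 and 9.57 in H1 and 10.94, 10.15, 10.63 and 10.59 in H2 (1.25 ± 0.36), and the protease Ctss differed by 1.12 ± 0.42. Of 21 MHC class I and interferon genes 3 were higher and 3 were lower, with a median of 0.14 that was -0.11 in the arrays of nearest spread and -0.06 with array spread as a covariate. H2-D1, a class I chain, was 8.56, 8.36 and 8.44 in H1 and 6.94, 6.56, 6.08 and 4.37 in H2 (-2.47 ± 0.54, adjusted p = 0.0717), without overlap. The difference was -1.65 in the arrays of nearest spread, its 9 probe sets ran from -2.47 to 0.41, and class I genes have near-identical copies that probes may share. The peptide transporter Tap1 differed by 0.83 ± 0.31 and the interferon-induced Ifit1 by -0.98 ± 0.37, both with overlap. Of 15 T and NK cell genes 0 were higher and 2 were lower, and 10 of the 15 had a mean below the median of all probe sets (median difference -0.15). In the mast cell and basophil list, where 7 of 12 genes had a mean below that level, Kit differed by -1.20 ± 0.30 while Hdc was higher. The other probe set of Kit gave 0.24 and that of Hdc 0.07.

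Over all genes, the H1 mean was nearer than the H2 mean to the mean of normal cells for 63.9%. The spread of values within an array was 1.14 to 1.67 in normal cells, and its part in the counts that follow was not tested. Of the 1894 genes whose H2 values all lay above H1, 1384 (73.1%) had an H1 mean nearer to the normal mean than the H2 mean. Both group means lay within the normal range for 1022 (54.0%), and for 658 (34.7%) H1 lay within and H2 above it. Of the 1412 genes whose H2 values all lay below H1, 1219 (86.3%) had H1 nearer, both means lay within the normal range for 974 (69.0%), and for 403 (28.5%) H1 lay within and H2 below it. These counts are a description, since the normal cells took no part in the comparison.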

How the data were processed

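The PicoPure kit was used for extraction and the WT-Ovation One-Direct kit for amplification, per the labels' protocols. The deposited table holds a log2 signal for each probe set of an Affymetrix array, made with the affy package and RMA (background correction, quantile normalization and probe summary), per the submitters' processing notes, which give no version. Of 45101 probe sets, 64 array controls were left out, 34945 had 1 gene symbol in the platform annotation, and 932 with several and 9160 with none there were not used. The reference table (GRCm38.p6) held the gene IDs of 34741 probe sets. A gene was represented by its probe set of highest mean over the 7 lesion arrays. H2 minus H1 was tested on the log2 values in R 4.3.3 with limma 3.58.1 (lmFit, then eBayes), on the 7 lesion arrays alone, with Benjamini-Hochberg adjustment over 18193 genes and a threshold of 0.05. The 5 residual degrees of freedom limit the precision. Of the tested genes 2868 (15.8%) had the same value on 2 or more of the 7 arrays. Array measures were compared with exact two-sided permutation tests. Named genes were up to 15 in each direction, taken in order of p among genes whose groups did not overlap and whose higher group mean lay above the median of all probe set means. Predicted, sex-linked and immune receptor genes were left out of this order. Up to 4 members of lowest p were named from a list, and Ddr1, Ddr2, Notch1, Hes1, Meg3 and Etv4 were given in any case. A further item is not reported here. The 57 gene lists (989 genes, 901 of them measured) and the genes were chosen with earlier results of these data known, and lists are described by counts and medians without a test. The script was tested on simulated data. Alternatives were other scalings, filters, probe set choices, priors, array weights, covariates and leaving out each array. The 4-array setting of nearest spread and the setting without x_at and s_at sets were chosen after seeing the data.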

Additional observations from a re-analysis of the deposited data

Results flagged for a closer look

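Among 130 sets of values (122 named genes over the 4 H2 arrays, and the array measures in H2 and in normal cells), 3 had an array whose gap to the nearest of the others was above Dixon's critical value (0.829 for 4 samples) as a share of the range, and chance gives about 1 in 20. Egfr was 5.90 on H2 replicate 5, and the other 3 arrays were all at 5.69. Ier3 was 7.55 on H2 replicate 6, against 6.50 to 6.59 on the others. Col4a2 was 4.40 on the same array, against 5.14 to 5.24 on the others.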

How the results depend on the processing

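Array weights gave 491 higher and 256 lower calls, scaled arrays 2 and 1, and all 15 arrays in 3 groups 1 higher and 0 lower; every other setting, including leaving out each array in turn (0 to 0 in both directions), gave 0 and 0. Unadjusted counts ranged from 944 to 2642 higher. Of 2668 values of 122 named genes under 22 other settings, 2645 kept their direction, and 69 were past the threshold. Direction turned with the mean of a gene's probe sets for Ddr2 (-0.052) and Adam10 (-0.11), and with the most variable probe set for Notch1 (0.36), Adam10 (-0.76), Egfr (-0.71), Acaca (-0.48) and Mcm6 (-1.31). It turned with the highest probe set over 15 arrays for Ago2 (-1.25), after repeated quantile normalization for Sftpb (-0.13) and Aqp5 (-0.00133), and with array spread as a covariate for Spry2 (-0.25), Egr2 (-0.0028), Col4a1 (-0.32) and Tpi1 (-0.14). Without x_at and s_at sets it turned for Ndufa12 (-0.52), Muc4 (-0.036), Ndufs8 (-0.41), Tacr3 (0.11), Pgd (-0.065), Tkt (-0.19), Ddx17 (-0.24), Piwil4 (-0.26) and Mt1 (-0.25). The last group follows from another probe set standing for the gene. So do the turns with the most variable probe set and with the highest probe set over 15 arrays. With the mean, the other probe sets of a gene enter its value. The cause of the turns after repeated quantile normalization and with array spread as a covariate was not tested. Without H1 replicate 2, differences moved by over 1.5 times for Ctsh (0.47), Ctss (0.61), Elovl1 (1.00), Lpl (0.88), Nfe2l2 (1.06), Col4a1 (0.68), Egr2 (0.93), Emp2 (0.46), Map2k1 (0.56) and Notch1 (-0.31), beside those given above, as did Aqp5 without H2 replicate 6 (0.47) and Ddr2 without H2 replicate 1 or 7 (0.35 and 0.29), and the small difference of Hes1 ranged from 0.010 to 0.24. Of 1254 list medians under other settings, 1129 moved by less than the spread between replicates. No paired analysis was possible because the labels do not say which samples share a mouse. The replicate numbers run through both groups (H1 at 2, 3 and 4, H2 at 1, 5, 6 and 7) and do not show pairing. For transcripts of low signal, the background limits what the values can show.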
